A study of Mus musculus with 2 samples.

Results

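The genes described are 8 that handle iron and haem: Hmox1, Blvrb, Cd163, Slc40a1, Fth1, Ftl1, Tfrc and Slc11a1. They were taken by symbol from the 32285 genes counted, and all 8 had UMIs (unique molecular identifiers, each marking 1 captured transcript) in both libraries. The data are 2 single-cell RNA-seq (scRNA-seq) libraries of the temporomandibular joint (TMJ) of female C57BL/6 mice, both after complete Freund's adjuvant (CFA), an inflammatory agent, was injected into the joint. The WT library came from wild-type mice and the Prox1 mutant library from mice labelled Prox1 mutant, which the study describes as heterozygous, Prox1+/−. The sample records give the age as 8 to 10 weeks and the study as 2 months. Prox1 encodes the transcription factor of lymphatic endothelium, the allele is carried by every cell, and the number of mice behind each library is not given in the sources used here. Each condition has 1 library, so every interval below is a 95% interval of counting error, and no difference between the libraries could be set against variation between mice.

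Iron reaches cells bound to transferrin through the receptor encoded by Tfrc, and cells that make haemoglobin take up the most. Macrophages recover iron from old red cells: Cd163 takes up haptoglobin with haemoglobin, and Hmox1 opens the haem ring. A working Slc11a1 protein moves metal ions out of the phagosome. Fth1 and Ftl1 form the heavy and light chains of the ferritin cage that stores iron, and Slc40a1 (ferroportin) carries iron out of the cell. Blvrb encodes a biliverdin and flavin reductase. Inflammation is known to hold iron inside macrophages, through hepcidin and through lower ferroportin transcription.

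Several of these mRNAs carry an iron-responsive element (IRE), a hairpin that iron regulatory proteins bind when iron is low, which blocks translation from a 5′ UTR and stabilizes the mRNA from a 3′ UTR. The hairpins are shown because they are the shared sequence of the storage, export and uptake genes and because UMI counts measure mRNA only, so control at translation was not measured here. A search of annotated UTRs of GRCm38 for a C, then 5 bases, the loop letters CAGTG and any base, with 5 paired bases in the upper stem and at least 3 of 5 in the lower stem, found a hairpin in 4 of the 8 genes (Slc40a1, Fth1, Ftl1 and Tfrc), in 1 of 45 other iron and haem genes (Alas2) and in 45 of 21877 protein-coding genes (0.206%). G paired with T was allowed, and genes were read on their own strand. Capitals mark the bulged C and the loop letters. The hairpins of Slc40a1 (chr1:45925466-45925492, minus strand), Fth1 (chr19:9982733-9982759, plus strand), Ftl1 (chr7:45459780-45459806, minus strand) and Alas2 (chrX:150547459-150547485, plus strand) lie in annotated 5′ UTRs, and the 4 of Tfrc lie in its 3′ UTR on the plus strand, in the order listed at chr16:32631220-32631246, chr16:32631599-32631625, chr16:32631664-32631690 and chr16:32631711-32631737.
Slc40a1 5′ UTR: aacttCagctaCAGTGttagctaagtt
Fth1 5′ UTR: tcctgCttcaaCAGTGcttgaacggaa
Ftl1 5′ UTR: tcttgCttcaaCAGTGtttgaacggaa
Alas2 5′ UTR: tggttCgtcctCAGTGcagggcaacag
Tfrc 3′ UTR, first: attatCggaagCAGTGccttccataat
Tfrc 3′ UTR, next: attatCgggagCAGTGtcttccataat
Tfrc 3′ UTR, next: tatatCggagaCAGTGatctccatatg
Tfrc 3′ UTR, last: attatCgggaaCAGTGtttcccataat
Hmox1, Blvrb, Cd163 and Slc11a1 had no hairpin that met these letters and pairings in their annotated UTRs.

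In the kept cells (4352 and 5757) the WT and mutant libraries held 48366846 and 54330221 UMIs, with a median of 6997 and 4848 UMIs per cell. The mutant library stood apart in haemoglobin, which took 3.39% of UMIs in WT and 8.76% in the mutant. The libraries shared 10 cell barcodes. Prox1 stood at 11.6 counts per 1000000 UMIs (CPM, 95% interval 10.7 to 12.6) in the WT library and 5.80 CPM (5.18 to 6.47) in the other. These values are over all kept cells, of which endothelial cells were 23.3% in WT and 8.84% in the mutant. The part of this cell mix in the Prox1 values was not tested. Cells were clustered and named from marker genes, which gave 19 named classes of at least 20 cells in WT and 21 in the mutant. Macrophages numbered 580 and 760, among them M1-like (257 and 186 cells, marked by genes such as Mmp12 and Spp1), Cxcl9-positive (155 and 187) and M2-like cells (75 and 102, Mrc1 and Folr2). The M1-like cells also had 4 raised osteoclast markers. At a finer clustering, 184 of the 257 WT and 118 of the 186 mutant M1-like cells took the osteoclast name. M1-like, Cxcl9-positive and M2-like cells each had all 5 of their markers above 0 in both libraries. The 318 WT and 691 mutant erythroid cells had all 8 of theirs. The same markers gave the names, so this is no separate check of them. All 8 erythroid markers were above 0 in macrophages too.

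The 8 genes fell into separate places. Hmox1, Fth1 and Ftl1 were highest in M1-like macrophages, Cd163 in M2-like macrophages, Slc11a1 in Cxcl9-positive macrophages, Slc40a1 in neutrophils, and Tfrc and Blvrb in erythroid cells, in both libraries. The highest class exceeded the median class by 54.4-fold for Tfrc in WT and 26.9-fold in the mutant, and by 32.1-fold and 22.4-fold for Hmox1. For Slc40a1 it was 21.3-fold and 13.4-fold, and for Ftl1 9.77-fold and 5.74-fold. For Slc11a1 and Slc40a1 the interval of the highest class overlapped that of the next class in both libraries. Levels are counts at the 3′ end per 1000000 UMIs and are compared between cell types for 1 gene, not between genes.

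**Figure D1:**
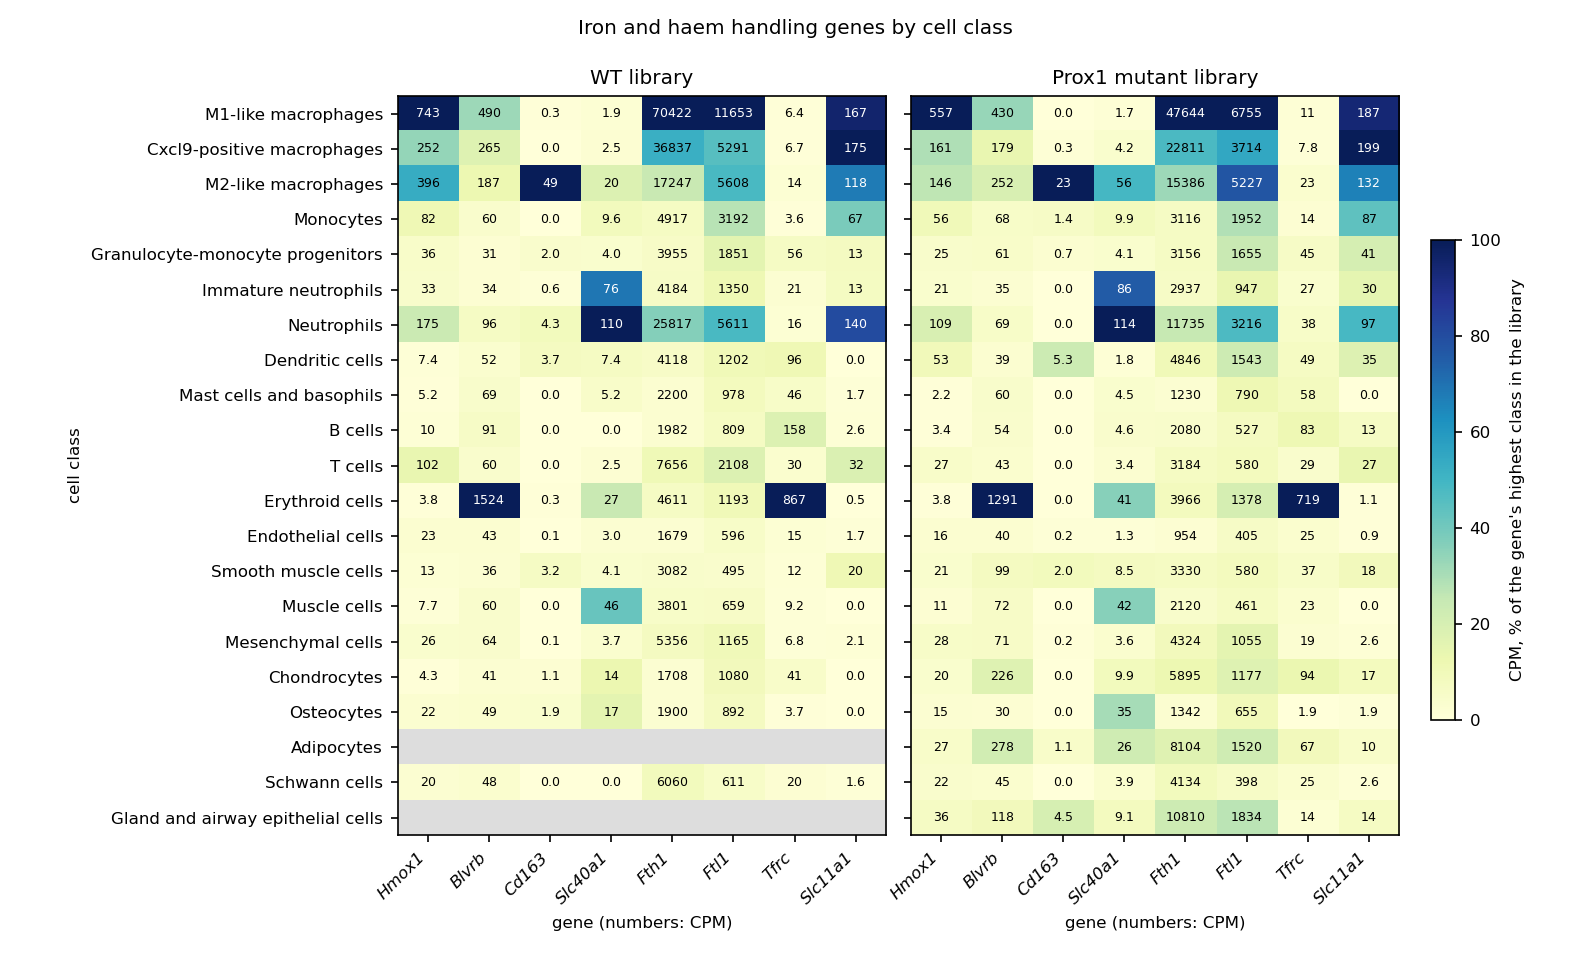
Level of each gene in each named class of at least 20 cells, with WT on the left and the Prox1 mutant on the right; numbers are CPM, colour is the percent of the gene's highest class in that library, and grey rows had too few cells. Each gene's darkest cell is in the same class in both libraries, from 867 and 719 CPM of Tfrc in erythroid cells to 743 and 557 CPM of Hmox1 in M1-like macrophages.

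Hmox1 (ENSMUSG00000005413, chr8:75093621-75100589), the haem oxygenase induced by haem and stress, was a macrophage transcript in these joints. Macrophages held 8080 of the 9323 WT UMIs (86.7%) and 4981 of the 6093 mutant UMIs (81.8%). M1-like macrophages stood at 743 CPM in WT (725 to 762) and 557 CPM in the mutant (539 to 575). Cxcl9-positive macrophages stood at 252 and 161 CPM, monocytes at 82.4 and 56.4 CPM, and erythroid cells at 3.81 (2.08 to 6.39) and 3.75 CPM (2.55 to 5.33). M1-like cells thus exceeded monocytes by 9.02-fold in WT and 9.87-fold in the mutant.

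Most M1-like cells had a Hmox1 UMI, 96.5% in WT and 94.6% in the mutant, against 4.09% and 4.20% of erythroid cells. The classes differ in depth, with a median of 31235 and 29498 UMIs in M1-like cells and 9199.5 and 9601 in erythroid cells. After each cell was thinned to 2000 UMIs the shares were 56.3% of 256 and 45.2% of 186 M1-like cells, and 0.325% of 308 and 1.53% of 655 erythroid cells.

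The amount per cell was uneven. The tenth of M1-like cells with the most Hmox1 held 38.0% of its UMIs in WT and 55.7% in the mutant. Single droplets carried 322 UMIs in WT and 525 in the mutant, and without them M1-like levels were 706 and 477 CPM. In M2-like macrophages 1 droplet decided the WT level: it held 232 of 393 UMIs, so that 396 CPM became 162 CPM without it. In the mutant the M2-like level was 146 CPM, or 126 CPM without its top droplet. Neutrophils had 175 CPM in WT (35.4% of cells) and 109 CPM in the mutant (36.1%).

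Blvrb (ENSMUSG00000040466, chr7:27447978-27466144), which encodes a biliverdin and flavin reductase abundant in red cells, was highest in erythroid cells, at 1524 CPM in WT (1484 to 1564) and 1291 CPM in the mutant (1266 to 1316). M1-like macrophages came next with 490 and 430 CPM. Erythroid cells with a UMI made up 98.4% and 92.9%, or 88% and 83.5% after thinning. Endothelial cells had 43.0 and 40.1 CPM and thinned shares of 7.46% and 4.72%. Within macrophages Cxcl9-positive cells had 265 and 179 CPM and M2-like cells 187 and 252 CPM, so the order of these subsets differed between the libraries. In thinned WT M1-like cells, Hmox1 and Blvrb were seen together in 34.0%, where independent detection would give 32.3%, and in the mutant in 23.1% against 22.6%. In M2-like cells the shares were 12.3% (9 of 73) against 7.09% in WT and 10.8% (11 of 102) against 7.19% in the mutant, on few cells.

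Cd163 (ENSMUSG00000008845, chr6:124304656-124330527), the haemoglobin scavenger receptor, was sparse. M2-like macrophages had 49 UMIs in WT, 49.4 CPM (36.6 to 65.3), and 50 in the mutant, 22.7 CPM (16.8 to 29.9). These were 62.0% and 59.5% of all Cd163 UMIs, and they came from 6 of 75 WT cells and 8 of 102 mutant cells. M1-like macrophages had 3 UMIs in WT (0.35 CPM, 0.072 to 1.02) and 0 in the mutant, which allows up to 0.455 CPM. Of the named classes 7 in WT and 11 in the mutant had 0 UMIs. Without the droplet with the most UMIs, M2-like levels were 25.2 and 12.7 CPM. When the libraries were merged without integration, the class with the most Cd163 in the mutant was granulocyte-monocyte progenitors.

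Slc40a1 (ENSMUSG00000025993, chr1:45908068-45926523), the iron exporter, was low in most macrophages and highest in the neutrophil lineage. Neutrophils stood at 110 CPM in WT (86.7 to 138) and 114 CPM in the mutant (94.6 to 137). Immature neutrophils stood at 75.8 CPM (63.5 to 89.9) and 86.3 CPM (75 to 98.8), with intervals that overlapped those of neutrophils. M1-like macrophages had 1.86 CPM (16 UMIs) and 1.67 CPM (11 UMIs). Over all macrophages the level was 3.43 CPM in WT and 12.5 CPM in mutant cells, so neutrophils exceeded macrophages by 32.1-fold in WT (log2 ratio 5.0, 4.45 to 5.57) and 9.15-fold in the mutant.

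Of immature neutrophils, 62.6% in WT and 66.0% in the mutant had a Slc40a1 UMI, and of neutrophils 29.3% and 37.9%, at median depths of 11572 and 12454 UMIs in the first and 2891 and 4706 in the second. Thinned to 2000 UMIs the shares were 16.9% and 13% of immature neutrophils and 18.5% and 18.9% of neutrophils, against 0.525% and 0.196% of endothelial cells and 0 of 256 and 0 of 186 M1-like macrophages. Summed over their marker lists, neutrophils held 534 and 461 CPM of macrophage markers and 2192 and 4006 CPM of erythroid markers, whose part was not tested. Erythroid cells had 26.9 CPM (21.9 to 32.8) and 41.4 CPM (37.1 to 46.0). Muscle cells held 46.1 CPM on 30 UMIs in WT and 41.6 CPM on 11 UMIs in mutant cells.

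M2-like macrophages were the macrophage subset with the most Slc40a1, 20.2 CPM in WT (12.3 to 31.2) and 56.3 CPM in the mutant (46.8 to 67.1), but 5 of 75 and 8 of 102 cells held all of it. The top droplet had 16 of 20 UMIs in WT and 51 of 124 in the mutant, and without it the levels were 4.03 and 33.1 CPM. Droplets with at least 3 Slc40a1 UMIs numbered 1 in WT and 4 in the mutant. All of these also held Vcam1, at 71 UMIs in WT and at 28, 88, 11 and 68 UMIs in the mutant, and 4 of the 5 held Spic, at 11 UMIs in WT and at 2, 7 and 16 in the mutant. Vcam1 and Spic, known from iron-recycling macrophages of the spleen, were picked after their values were seen. Among all M2-like cells, 11 of 75 in WT and 25 of 102 in the mutant held Vcam1, and 6 and 7 held Spic. The cells with at least 3 Slc40a1 UMIs held 71 of 142 Vcam1 UMIs of the WT M2-like cells and 195 of 363 in the mutant.

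Few M2-like droplets held Slc40a1 or Cd163, the export and scavenger transcripts, so their overlap rests on small counts. At least 1 UMI of both genes was seen in 2 WT droplets and 1 mutant droplet, of 5 and 8 with Slc40a1 and 6 and 8 with Cd163, and these held 36 of the 49 WT and 22 of the 50 mutant Cd163 UMIs. Cd163 reached 3 UMIs in 5 WT and 4 mutant droplets, and 1 mutant droplet, with 22 Cd163 and 14 Slc40a1 UMIs out of 45618, had both. The other 4 droplets with 3 or more Slc40a1 UMIs had 0 of Cd163. The mutant droplet with 51 Slc40a1 UMIs had 15.1% haemoglobin UMIs, and the part of free or engulfed erythroid RNA in its counts was not tested. With so few droplets the counts are given as a description.

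**Figure D2:**
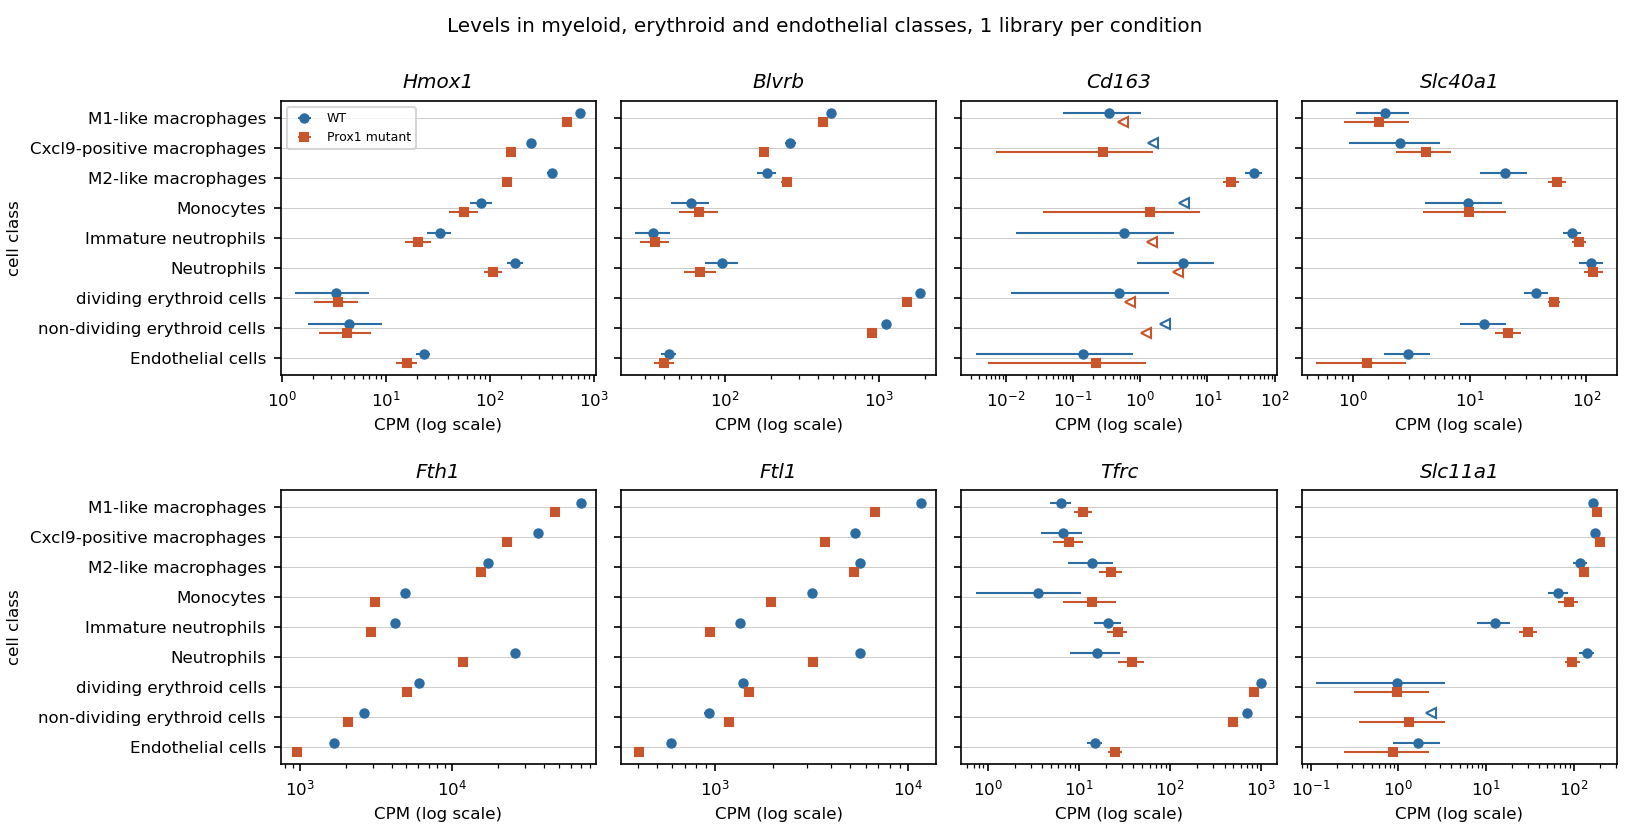
CPM on a log axis, with 95% counting intervals, for each gene in 9 myeloid, erythroid and endothelial classes; circles are WT, squares the Prox1 mutant, and hollow triangles mark the upper limit where no UMI was counted. Slc40a1 is near 110 CPM in neutrophils and below 5 CPM in M1-like and Cxcl9-positive macrophages, and Hmox1 is below 5 CPM in both groups of erythroid cells.

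Ferritin heavy chain, Fth1 (ENSMUSG00000024661, chr19:9980598-9985098), took 7.04% of all UMIs of M1-like macrophages in WT and 4.76% in the mutant. The levels were 70422 CPM (70245 to 70600) and 47644 CPM (47477 to 47811). Cxcl9-positive macrophages had 36837 and 22811 CPM, M2-like macrophages 17247 and 15386 CPM, and monocytes 4917 and 3116 CPM. M1-like cells therefore exceeded monocytes, the blood cells that give rise to many joint macrophages, by 14.3-fold and 15.3-fold. Endothelial cells were the lowest class at 1679 and 954 CPM.

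The Fth1 level was spread over the M1-like cells. Per-cell values ran from 39263 CPM at the 10th percentile through a median of 71533 to 100490 at the 90th percentile in WT, and from 22596 through 44989 to 79468 CPM in the mutant. The median cell held 1986 Fth1 UMIs in WT and 1304.5 in the mutant, against 109 and 207.5 in M2-like cells, whose median depth was 12320 and 18263 UMIs. Heavy and light chains together took 8.21% and 5.44% of M1-like UMIs, 2749 and 1927 UMIs per cell. Over all kept cells they took 2.30% and 1.44%.

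Ferritin light chain, Ftl1 (ENSMUSG00000050708, chr7:45457944-45459884), was also highest in M1-like macrophages, with 11653 CPM in WT and 6755 CPM in mutant cells. The classes below them stood in another order than for the heavy chain. In WT neutrophils had 5611 CPM, M2-like macrophages 5608 and Cxcl9-positive macrophages 5291. In the mutant M2-like macrophages, with 5227 CPM, were above Cxcl9-positive ones, with 3714, the reverse of Fth1, and neutrophils had 3216. Monocytes had 3192 and 1952 CPM, so M1-like cells exceeded them by 3.65-fold and 3.46-fold, less than for the heavy chain. Ftl1 shares sequence with the retrogene Ftl1-ps1, which held 1.37% as many UMIs in WT and 0.966% in the mutant, so its counts are uncertain by reads that cannot be placed.

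The balance of heavy and light chains differed between cell types. M1-like macrophages had 6.04 Fth1 UMIs for each Ftl1 UMI in WT (6.00 to 6.08) and 7.05 in the mutant (6.98 to 7.12). M2-like macrophages had 3.08 (2.98 to 3.17) and 2.94 (2.88 to 3.01), and monocytes 1.54 (1.47 to 1.62) and 1.60 (1.49 to 1.71). Heavy chains carry the iron-oxidizing activity of the cage and light chains favour long-term storage, and protein was not measured here. The ratio is one of UMIs and carries any difference in how well the 3′ ends were captured, which is shared by all classes.

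Schwann cells, the glia of peripheral nerve, had the highest ratio, 9.91 in WT (9.32 to 10.5) and 10.4 in the mutant (9.24 to 11.7), with 6060 and 4134 CPM of Fth1 and 611 and 398 CPM of Ftl1. Smooth muscle cells had 6.22 and 5.74 and muscle cells 5.77 and 4.60. The low end held monocytes, mast cells and basophils (2.25 and 1.56), osteocytes (2.13 and 2.05) and granulocyte-monocyte progenitors (2.14 and 1.91). Neutrophils had 4.60 and 3.65, above immature neutrophils with 3.1 in both libraries. Chondrocytes went from 1.58 in WT to 5.01 in the mutant, where their median depth was 32750 and 3359 UMIs and haemoglobin took 0.0151% and 12.4% of their UMIs, and the part of depth and haemoglobin in this value was not tested.

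**Figure D3:**
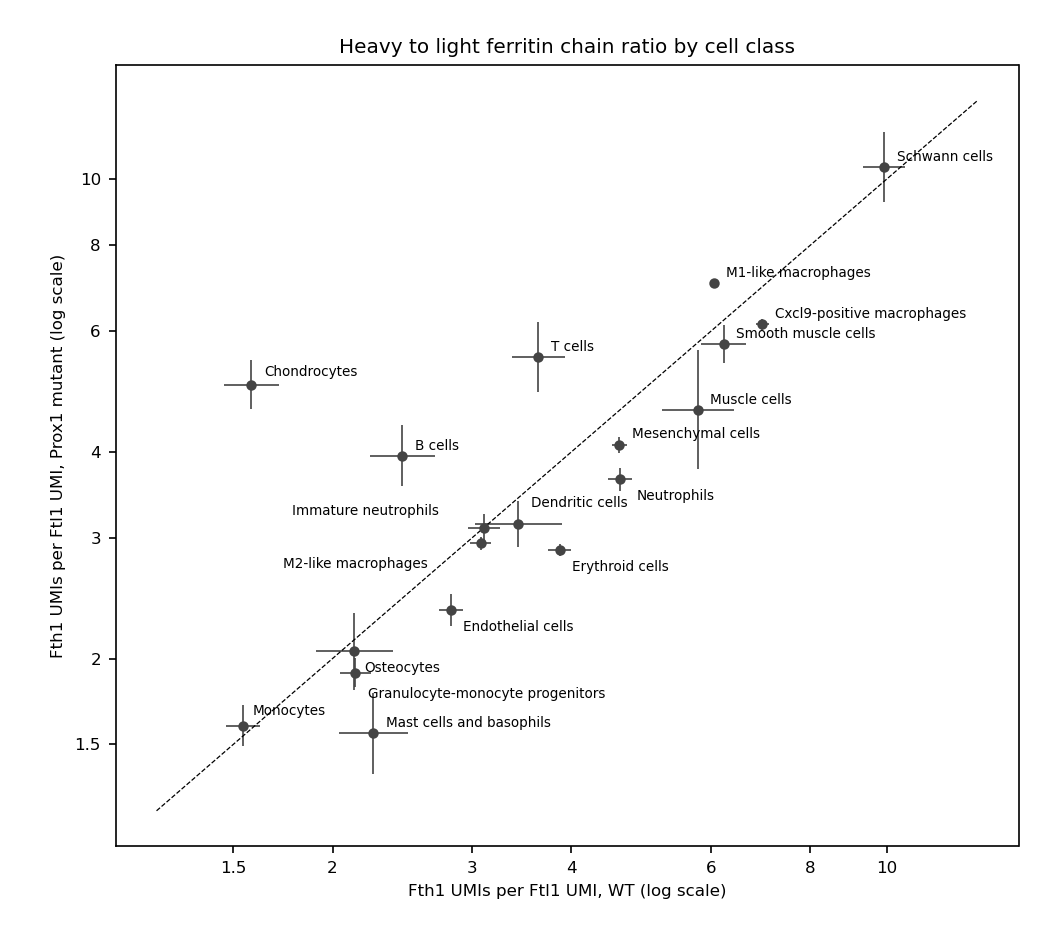
Fth1 UMIs per Ftl1 UMI in each class with at least 20 cells in both libraries, WT on the x axis and the Prox1 mutant on the y axis, both log scales, with 95% counting intervals and a dashed line of equal values. Schwann cells are at the top right with 9.91 and 10.4, monocytes at the bottom left with 1.54 and 1.60, and chondrocytes lie off the line.

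Tfrc (ENSMUSG00000022797, chr16:32608920-32632794), the transferrin receptor, was an erythroid transcript. Erythroid cells stood at 867 CPM in WT (837 to 898) and 719 CPM in the mutant (701 to 738) and held 80.5% and 80.4% of all Tfrc UMIs. A UMI was seen in 94.0% and 87.4% of them, or 71.8% and 64.3% after thinning, against thinned shares of 3.15% and 3.14% in endothelial cells. B cells came next in WT at 158 CPM. In the mutant chondrocytes came next at 94.2 CPM (57 UMIs), ahead of B cells at 83.2 CPM. Dendritic cells had 95.9 and 49.2 CPM. M1-like macrophages had 6.39 and 11.2 CPM and M2-like macrophages 14.1 and 22.7 CPM.

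Among the erythroid clusters the CPM of Tfrc was higher where haemoglobin took less of the RNA. Dividing erythroid cells had 995 CPM in WT and 847 CPM in mutant cells, and non-dividing ones 697 and 500 CPM. In the mutant library the 2 clusters with the least haemoglobin, 7.53% and 7.72% of UMIs, had 1065 and 1603 CPM of Tfrc, those with 20.1% and 60.5% had 814 and 620 CPM, and the one with 82.7% had 34.5 CPM. The WT clusters of at least 20 cells had 985 CPM at 22.2% and 744 CPM at 66.0% haemoglobin. CPM here is a share of all RNA, so a rise of haemoglobin alone lowers the CPM of every other gene. Haemoglobin took 22.0% of WT and 19.6% of mutant UMIs in dividing cells, and 66.0% and 63.4% in non-dividing cells. The order of the clusters was not computed outside haemoglobin genes, where it may differ or reverse. Between dividing and non-dividing cells 74.5% of genes in WT and 81.4% in the mutant were at least 2-fold apart.

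The other genes did not all follow Tfrc along the erythroid clusters. Both clusters with the least haemoglobin were shallow, with a median of 2215.5 and 3256 UMIs against 14291.5 in the dividing cluster with 20.1%. Blvrb was 857 and 638 CPM in them, 1557 CPM at 20.1%, 986 CPM at 60.5% and 642 CPM at 82.7%. Fth1 had the same middle peak in CPM, with 976 and 1016 CPM in the shallow clusters, then 5248, 2287 and 1607 CPM. The part of haemoglobin in the fall of both genes after the peak was not tested. Their order over the clusters was not computed outside haemoglobin genes either, where it may differ or reverse. Slc40a1 had 44.7 and 88.5 CPM (6 and 19 UMIs), then 51.6, 25.6 and 4.14 CPM, the last on 3 UMIs (0.85 to 12.1). The heavy to light chain ratio of dividing cells was 4.38 in WT and 3.39 in the mutant, and that of non-dividing cells 2.84 and 1.76.

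**Figure D4:**
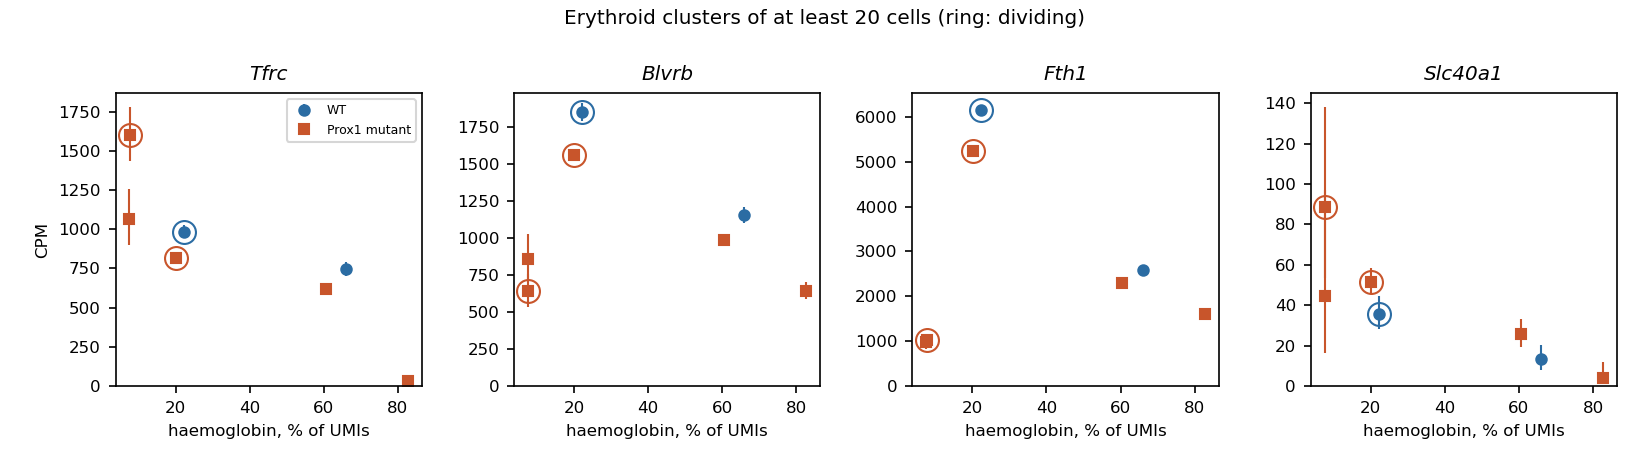
CPM of Tfrc, Blvrb, Fth1 and Slc40a1, with 95% counting intervals, against the percent of UMIs from haemoglobin genes in each erythroid cluster of at least 20 cells; circles are WT, squares the Prox1 mutant, and rings mark dividing clusters. Tfrc is at 34.5 CPM in the cluster with the most haemoglobin and at 1603 CPM in the dividing cluster with the least, while the CPM of Blvrb and Fth1 is highest near 20% haemoglobin. Haemoglobin UMIs are part of the CPM total.

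Slc11a1 (ENSMUSG00000026177, chr1:74375195-74386062), which encodes the phagosomal metal transporter Nramp1, was a transcript of macrophages and neutrophils. Its counts are of mRNA only, and whether this mouse strain makes a working transporter was not tested. Cxcl9-positive macrophages had 175 CPM in WT (158 to 192) and 199 CPM in the mutant (184 to 214), and M1-like macrophages 167 CPM (158 to 175) and 187 CPM (176 to 197), with overlapping intervals. M2-like macrophages had 118 and 132 CPM, neutrophils 140 and 96.7 CPM, and monocytes 66.9 and 87.4 CPM. Thinned shares were 29.3% and 34.9% in M1-like cells against 0 of 308 and 0.305% of 655 erythroid cells. Immature neutrophils were at 12.5 and 30.0 CPM.

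The first comparison set M2-like against M1-like macrophages within each library, over genes with at least 200 UMIs in the 2 subsets. Fth1 was at least 2-fold lower in the M2-like cells of both libraries. In WT 3 of the 5 members with enough UMIs were at least 2-fold lower (background: 8.99% of 5316 genes lower, 12.9% higher and 21.9% in either direction), with log2 ratios of −2.03 for Fth1 (17247 against 70422 CPM), −1.39 for Blvrb and −1.06 for Ftl1. In the mutant 2 of 5 were (background 8.37% lower, 7.25% higher and 15.6% in either direction), Hmox1 at −1.93 (146 against 557 CPM) and Fth1 at −1.63, while Blvrb at −0.77 and Ftl1 at −0.37 did not pass. The median log2 ratio of the 5 members was −1.06 in WT and −0.77 in the mutant, beside 0.21 and 0.12 over all genes. WT Hmox1 had −0.91, and −2.12 (−2.36 to −1.89) without the top droplet of each subset, which puts it past 2-fold as in the mutant (−1.92). Slc11a1 had −0.50 in both libraries. Members under 200 UMIs went the other way, Slc40a1 at 3.44 (2.42 to 4.49) and 5.08 (4.19 to 6.11) and Tfrc at 1.14 and 1.01, and Cd163 in WT had 7.15 (5.52 to 9.47). For Slc40a1 in WT, 1 droplet held 16 of the 20 M2-like UMIs. Without the top droplet of each subset Slc40a1 stood at 4.03 against 1.39 CPM in WT and 33.1 against 1.06 CPM in the mutant. The iron genes took part in the clustering that made these subsets. With the iron genes left out of it Fth1 had −1.94 in WT and −1.70 in the mutant.

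The next comparison set erythroid cells against all macrophages. All 6 members with at least 200 UMIs in WT and all 7 in the mutant were at least 2-fold apart, where 62.1% of 7117 and 60.8% of 8298 genes were. Of all genes 15.5% and 17.1% were higher in erythroid cells and 46.6% and 43.8% lower. Tfrc was higher in erythroid cells, with log2 ratios of 6.69 in WT and 5.50 in the mutant, and Blvrb with 1.88 and 2.02. Slc40a1 was higher in the mutant with 1.73 and had too few UMIs in WT. Hmox1 was lower with −7.37 and −6.56, Slc11a1 with −8.24 (−11.28 to −6.38, on 2 erythroid UMIs) and −7.34, Fth1 with −3.67 and −3.07 and Ftl1 with −3.04 and −1.94. Erythroid markers in the macrophages summed to 501 and 2368 CPM and macrophage markers in erythroid cells to 63.9 and 35.2 CPM.

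Along neutrophil maturation the storage genes differed more than the exporter. Neutrophils had more than immature neutrophils of Fth1, with log2 ratios of 2.63 in WT and 2.0 in the mutant, and of Ftl1 with 2.06 and 1.76. Slc40a1 had 0.54 (0.11 to 0.95) and 0.41 (0.07 to 0.74). Hmox1 and Slc11a1 were under the minimum of 200 UMIs and are given by their values, 2.40 (1.94 to 2.88) and 2.40 (1.91 to 2.91) for Hmox1 and 3.48 (2.81 to 4.22) and 1.69 (1.24 to 2.15) for Slc11a1. Among all genes 42.8% in WT and 36.8% in the mutant were at least 2-fold apart between these classes.

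Between the libraries, macrophages of the Prox1 mutant had less ferritin and Hmox1 mRNA and more Tfrc, and more Slc40a1 in a few M2-like droplets and in unnamed subclusters. Of the 7 members with at least 200 UMIs, 5 were at least 1.5-fold apart, where 16.9% of 8383 genes were (13.4% higher and 3.53% lower in the mutant). Hmox1 went from 629 to 354 CPM (log2 ratio −0.83, −0.88 to −0.78), Fth1 from 58706 to 33258 CPM (−0.82) and Ftl1 had −0.89. Slc40a1 went from 3.43 to 12.5 CPM (1.87, 1.38 to 2.38) and Tfrc from 8.41 to 15.9 CPM (0.92, 0.58 to 1.27). Blvrb had −0.38, Slc11a1 0.11 and Cd163, under 200 UMIs, 0.00. The median over the 7 was −0.38, beside 0.20 over all genes.

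The pooled values also carry the mix of subsets, in which M1-like cells were 257 of 580 in WT and 186 of 760 in the mutant and the unnamed subclusters of the reclustering held 94 and 283 cells. Within M1-like cells the log2 ratio was −0.42 for Hmox1, under 1.5-fold, and −0.56 for Fth1, under 1.5-fold too. Tfrc stood at 6.39 and 11.2 CPM in M1-like, 6.73 and 7.80 CPM in Cxcl9-positive and 14.1 and 22.7 CPM in M2-like macrophages. In the unnamed subclusters Tfrc had 26.6 (23 UMIs) and 42.8 CPM (71 UMIs), of which the top droplets held 11 and 23 UMIs. Slc40a1 stood at 1.86 and 1.67 CPM in M1-like, 2.52 and 4.18 CPM in Cxcl9-positive and 20.2 and 56.3 CPM in M2-like macrophages, and at 2.32 (2 UMIs) and 15.7 CPM (26 UMIs) in the unnamed subclusters. Without the droplet with the most Slc40a1 in each library the levels of all macrophages were 2.18 and 8.88 CPM. Without the 1 WT and 4 mutant M2-like droplets with at least 3 Slc40a1 UMIs, an alternative chosen after the data were seen, they were 2.18 (1.45 to 3.15, 28 UMIs) and 4.15 CPM (3.15 to 5.37, 58 UMIs), under the UMI minimum for a ratio.

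Haemoglobin took 0.184% of the UMIs of macrophages in WT and 1.0% in the mutant, and erythroid markers summed to 501 and 2368 CPM with all 8 above 0. Among macrophages with under 1% haemoglobin, chosen as an alternative after the data were seen, the log2 ratio was 0.97 for Tfrc, −0.82 for Hmox1, −0.81 for Fth1 and −0.87 for Ftl1, and Slc40a1 had too few UMIs. Neutrophil markers in macrophages summed to 826 CPM in WT and 2666 CPM in mutant cells, and since neutrophils hold Slc40a1 at 110 and 114 CPM this is given beside it; its part was not tested.

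By subset the ferritin difference was unequal. The log2 ratio of Fth1 was −0.56 in M1-like, −0.69 in Cxcl9-positive and −0.16 in M2-like macrophages, and that of Ftl1 −0.79, −0.51 and −0.10. At 1.5-fold, 3.13%, 4.94% and 4.37% of genes were lower in the mutant in these subsets and 13.3%, 7.76% and 4.88% higher. The M1-like value of Fth1 lay below the 5th percentile of all genes, −0.47. Hmox1 had −0.42, −0.65 and, with the WT droplet, −1.44. Slc11a1 had 0.16, 0.19 and 0.16, and Blvrb −0.19, −0.57 and 0.43. The differences between subsets had no test.

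Ferritin mRNA was lower in the mutant library in most classes outside macrophages too. Over 19 classes, which include the M1-like, Cxcl9-positive and M2-like macrophages, Fth1 was lower in 15, at least 1.5-fold in 7. Ftl1 was lower in 15 of these 19, at least 1.5-fold in 6. Neutrophils had −1.14 for Fth1, from 25817 to 11735 CPM, where 13.1% of genes were lower by 1.5-fold, and endothelial cells had −0.82, from 1679 to 954 CPM. Hmox1 was lower in 5 of the 6 classes with enough UMIs, which include the same macrophage subsets, and higher in mesenchymal cells (0.11). Tfrc had enough UMIs in 2 classes, with 0.74 in endothelial cells, from 15.1 to 25.3 CPM, and −0.27 in erythroid cells. On fewer UMIs Tfrc was higher in the mutant in classes such as mesenchymal (6.82 and 18.5 CPM) and smooth muscle cells (12.4 and 36.6 CPM). It was lower in others, such as B cells (158 and 83.2 CPM) and dendritic cells (95.9 and 49.2 CPM). Over all kept cells Fth1 was at 19484 CPM in WT and 12079 CPM in mutant cells, where 11.8% of all genes were lower and 7.94% higher by 1.5-fold. A shift that many classes of 1 library share cannot be told apart from a difference between 2 captures.

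In erythroid cells 1 of 5 members, Slc40a1, was at least 1.5-fold apart, higher in the mutant (11.2% of genes were higher and 4% lower), with a log2 ratio of 0.62 (0.29 to 0.96), where 15.3% of 4819 genes were. The others had −0.22 for Fth1, 0.21 for Ftl1, −0.27 for Tfrc and −0.24 for Blvrb. Slc40a1 was higher in the mutant in dividing cells, 37.2 and 53.1 CPM, and in non-dividing cells, 13.3 and 21.4 CPM. Under 4 of 11 alternatives, such as CPM outside haemoglobin and mitochondrial genes (0.50), the log2 ratio of Slc40a1 was between 0.45 and 0.57 and no longer past 1.5-fold.

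**Figure D5:**
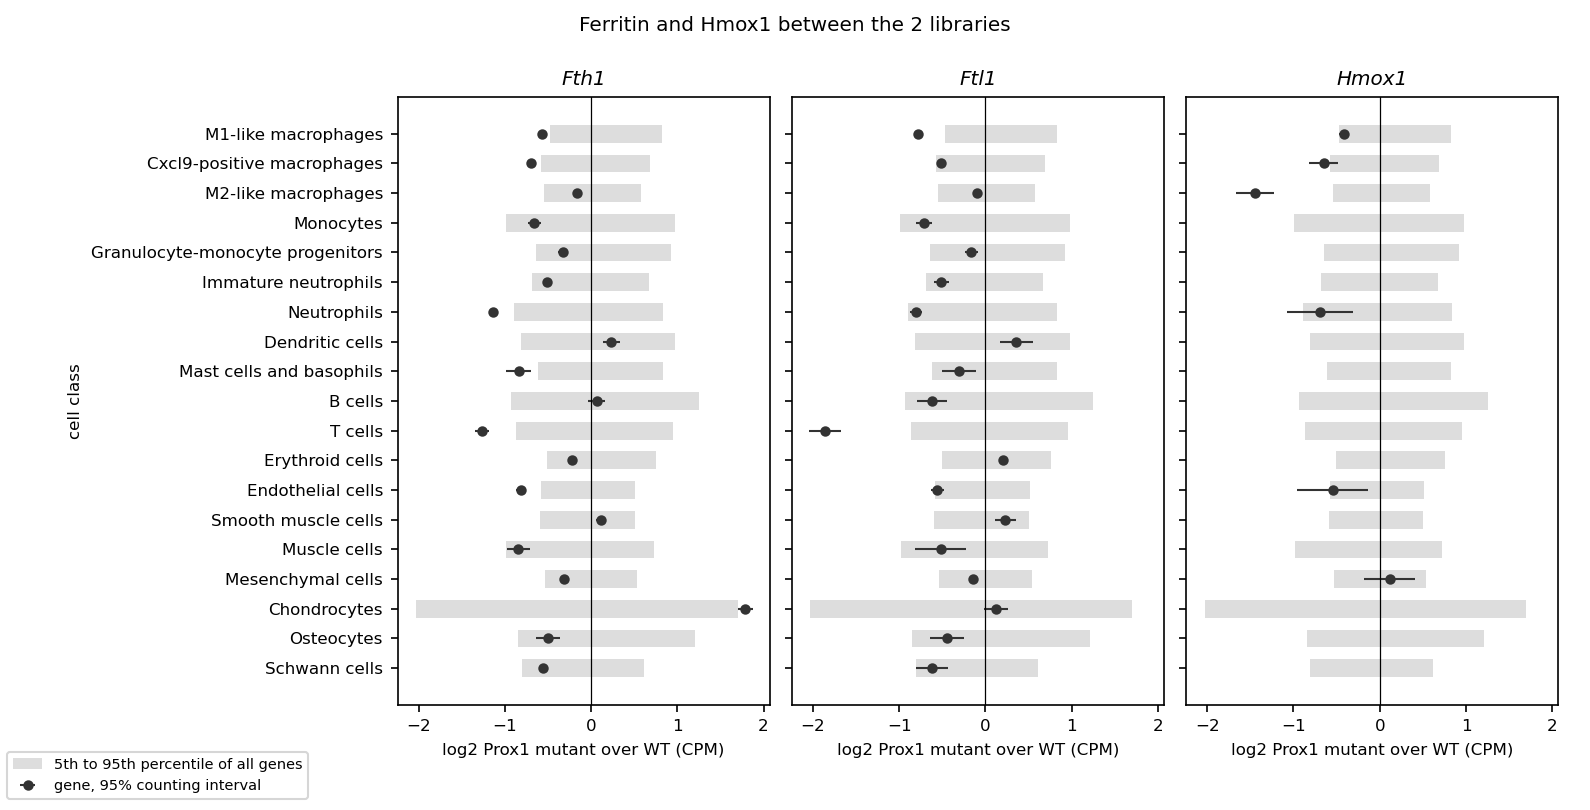
Log2 ratio of CPM, Prox1 mutant over WT, of Fth1, Ftl1 and Hmox1 in each class with at least 20 cells and 200 UMIs of the gene; points have 95% counting intervals and grey bars run from the 5th to the 95th percentile of all genes in that class. Most Fth1 and Ftl1 points lie left of 0, and T cells (−1.27) and chondrocytes (1.79) are the ends of the Fth1 column.

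Of 46 other iron and haem genes on a list of the pathway, 45 were counted in the files. In M2-like against M1-like macrophages 21 had enough UMIs in WT and 23 in the mutant. At 2-fold, 2 were higher and 5 lower in WT and 2 higher and 6 lower in the mutant, with medians of −0.16 and −0.17 beside 0.21 and 0.12 over all genes. In both libraries Bach1, a haem-sensing repressor of Hmox1, was higher in M2-like cells (log2 ratios 1.94 and 1.38). Alas1, the rate-limiting enzyme of haem synthesis outside red cells, was lower (−4.37 and −3.37, from 584 and 305 CPM in M1-like cells to 28.2 and 29.5 CPM). Fbxl5, the iron sensor that marks an iron regulatory protein for breakdown, was lower (−2.85 and −2.38), as were haptoglobin, Hp (−3.63 and −4.58), and the mitochondrial iron importer Slc25a37 (−1.55 and −1.45).

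In erythroid cells against macrophages 34 of these genes had enough UMIs in WT and 38 in the mutant; 13 were higher and 11 lower in WT and 15 higher and 14 lower in the mutant. Their medians were −0.11 in both libraries beside −0.84 and −0.70 over all genes. Haem synthesis genes were higher in erythroid cells, with Alas2 at 7.83 and 5.65 (1009 and 1220 CPM), Alad at 5.97 and 5.4, Cpox at 5.92 and 5.52 and Fech at 5.71 and 5.05. Slc25a37 had 3.73 and 3.44, the haem exporter Abcg2 4.90 and 4.63, and Ncoa4, which takes ferritin to the lysosome, 1.55 and 1.74. The synthesis enzyme Alas1 was lower with −6.62 and −5.34, as were the haem oxygenase Hmox2 with −2.88 and −2.96, Nfe2l2 (Nrf2, an activator of ferritin and Hmox1 genes) with −3.63 and −3.51, and Fbxl5 with −4.83 and −4.49.

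Between the libraries 33 of the pathway genes had enough UMIs in macrophages, and 5 were at least 1.5-fold higher in the mutant and 1 lower, with a median of 0.21. Alas2 (2.45), Cpox (1.01) and Fech (0.93), all haem synthesis enzymes that were at least 2-fold higher in erythroid cells, were higher together with the erythroid markers given above. The neutrophil-stored siderophore binder Lcn2 (2.13) and Cp (2.04), the ferroxidase ceruloplasmin, were also higher. Alas1 was lower, from 428 to 176 CPM (−1.28). In erythroid cells 2 of 28 were higher, Slc39a8 (0.78) and Cpox (0.60), and 0 lower, with a median of 0.10 beside 0.17 over all genes.

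The genes whose levels most resembled each member over the 40 class and library points were found by Pearson's r of log2(CPM + 5). The points share 2 libraries and differ in depth, so the values are a description. Hmox1 was most like Cstb (0.913) and the lysosomal genes Psap (0.886) and Ctsd (0.884). Fth1 was most like Cstb (0.881), Ctsd (0.870) and Ftl1 (0.866). Slc11a1 was most like Pla2g7 (0.944) and the macrophage growth factor receptor Csf1r (0.932), Cd163 like Mrc1 (0.806) and Folr2 (0.787), and Tfrc like the replication genes Wdhd1 (0.871) and Orc1 (0.860). Blvrb was most like Gm16867 (0.872) and Slc25a37 (0.831), Ftl1 like Esd (0.902), and Slc40a1 like the neutrophil gene Stfa1, at a lower 0.719. Among the members Hmox1 and Slc11a1 had 0.874, Hmox1 and Tfrc −0.507, and Slc40a1 stayed between −0.018 and 0.202 with every other member.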

How the data were processed

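Raw UMI counts per gene and barcode, which the authors made with Cell Ranger 7.0.1 on mm10 (GRCm38) and deposited without normalization, were used. Whether intronic reads were counted or doublets removed is not given in the sources used here. Following the study's methods, barcodes were kept from 500 genes up and below 10% mitochondrial UMIs (76.2% of 5709 in WT and 73.4% of 7846 in the mutant), then SCTransform, anchor integration and clustering with 200 principal components and a resolution of 1.5 were run in Seurat 5.3.0 (sctransform 0.4.2, R 4.3.3). Macrophages were reclustered on 30 components at resolution 0.5. A cluster was named from at least 3 raised markers, and 9 of 44 clusters stayed unnamed. UMIs were summed per class and library and given as CPM with exact Poisson intervals, and shares of cells with Clopper-Pearson intervals. Ratios needed at least 200 UMIs, were read at 2-fold between classes and 1.5-fold between libraries, and carry conditional binomial intervals. No test was run, since each condition has 1 library. A gene at 0 was given the limit of 3 UMIs. Scrublet (scanpy 1.11.5) called 0 doublets, so none were removed, and removing its 239 WT and 462 mutant highest scores was an alternative. Ratios were tested on counts simulated for M2-like against M1-like macrophages of WT over 5305 genes, where 100% of 199 changed genes and 0.157% of unchanged genes passed 2-fold. The simulated intervals held the true ratio for 95.1%, which does not extend to real values that single droplets decide. WT M2-like Hmox1, at 396 CPM (358 to 438), fell to 162 CPM without its top droplet. The members and lists were chosen with earlier results of these data known. All 8 members are named, pathway genes where past 2-fold between classes in both libraries or 1.5-fold between libraries, and the like genes by highest r. Hairpins were read from the GRCm38 genome with GENCODE M21.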

Additional observations from a re-analysis of the deposited data

Results flagged for a closer look

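The mutant over WT log2 ratio of Fth1 stood apart in 2 classes, chondrocytes and T cells, which went in opposite directions; the difference was not tested, since each condition has 1 library. In chondrocytes it was 1.79, from 1708 CPM in 29 WT cells to 5895 CPM in 109 mutant cells, whose median depth was 32750 and 3359 UMIs and whose haemoglobin share was 0.0151% and 12.4%. In T cells it was −1.27, from 7656 CPM in 47 WT cells to 3184 CPM in 85 mutant cells, and 1 WT droplet held 1555 of the 3073 WT Fth1 UMIs. The macrophage marker C1qa stood at 239 CPM in WT T cells and 44.6 CPM in mutant T cells, and its part in the value was not tested.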

How the results depend on the processing

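No paired analysis was possible because each condition has 1 library. No value past its threshold changed direction under the alternatives run, and 42 of 70 moved by less than their counting interval for M2-like against M1-like macrophages in WT, 45 of 70 in the mutant, 53 of 78 and 49 of 91 for erythroid cells against macrophages, and 60 of 92 and 35 of 55 between the libraries in macrophages and erythroid cells. At macrophage resolution 1.0 the members at least 2-fold apart between M2-like and M1-like cells numbered 1 in WT and 1 in the mutant. There 184 of the 257 WT and 118 of the 186 mutant M1-like cells, led by Mmp12 and Spp1, took the osteoclast name, so other cells were compared. With genes of 50 or more UMIs the counts were 5 and 5. Between the libraries in erythroid cells the count was 0 when libraries were merged without integration, 0 with CPM outside haemoglobin and mitochondrial genes and 0 with the mean of per-cell CPM. With cells thinned to 5000 UMIs, 5 of 8 members kept their highest class by share of cells in the mutant. Cd163 in the mutant was highest in granulocyte-monocyte progenitors when libraries were merged without integration, and WT Slc11a1 in M1-like macrophages with the mean of per-cell CPM. The cause of the other changes was not tested, except that a lower UMI minimum admits more genes. Fth1 was at least 2-fold lower in M2-like cells under 14 of 14 settings in both libraries (−2.59 to −1.07 in WT, −2.0 to −1.25 in the mutant). Hmox1 passed 2-fold under 5 of 14 settings in WT (−2.28 to −0.08), and Ftl1 in the mutant ran from −0.71 to 0.33. In macrophages between the libraries Fth1 (−0.95 to −0.73), Ftl1 (−0.95 to −0.78) and Hmox1 (−1.0 to −0.74) passed 1.5-fold under 14 of 14 settings, Tfrc under 13 of 14 and Slc40a1 under 8 of the 8 that left it enough UMIs. Depth limits Cd163 and Slc40a1 in macrophages most, at 52 and 44 WT UMIs.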

Other observations

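A shallow macrophage cluster of the first clustering held 35 WT and 180 mutant cells with a median of 2802 and 3086 UMIs. Haemoglobin took 5.87% and 5.02% of its UMIs. It was reclustered with the other macrophages, so it overlaps the subsets and unnamed subclusters above. Its Hmox1 level was 1589 CPM in the WT cells and 321 CPM in the mutant cells, and its Fth1 to Ftl1 ratio was 6.05 and 8.52. An unnamed cluster with 37.2% haemoglobin UMIs in WT and 38.8% in the mutant held 8 WT and 667 mutant cells, which were in no named class here.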
